A study of Mus musculus with 12 samples.

Results

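CD4 T effector cells of WT origin and of Y16A origin were compared within the spleen of the mice that had received them, with 3 libraries of each origin. These are 6 of the 12 libraries of the series. The members were the 3 spleen libraries titled Y16A and the 3 titled WT, and the transcript values were summed per gene. The WT donors were female NOD mice, a strain that develops autoimmune diabetes, and the Y16A donors were female NOD.InsY16A transgenic mice, in which the insulin transgene carries the Y16A change. Donors of both kinds were 6 to 8 weeks old and had been immunised with insulin C19A. Their splenocytes were cultured for 2 weeks with 10 µM peptide, CD4 T cells were purified, and 5000000 of them were given to female NOD.scid recipients of 8 to 10 weeks. All groups therefore shared the immunisation, the culture and the host. The scid host makes no T or B cells of its own but keeps myeloid cells, erythroid cells and NK cells. The titles name 1 recipient for each spleen library, and the other 6 libraries came from the pancreatic islets of the same recipients. The cells are cultured lines, and the labels do not say how many donors stood behind the cells of each recipient.

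In NOD mice, CD4 T cells that recognise a peptide of the insulin B chain are among the best known drivers of islet inflammation. The tyrosine that is changed to alanine in the Y16A protein is a residue of that peptide which the T cell receptor touches. Such cells can enter the islets and make interferon gamma there, whereas the spleen is a lymphoid organ through which T cells recirculate. The spleen comparison asks whether cells selected on the native or on the altered insulin differ away from the islets.

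No gene was called different between the origins in spleen. Of 10081 genes tested, 0 (0%) passed an adjusted p of 0.05 in limma, and the smallest adjusted p was 0.297. With 1 spleen library left out the count was 0 or 1, and the gene called was Pole3 without WT library 2, Snora78 without WT library 3, Stk16 without Y16A library 2 and H2bu2 without Y16A library 3. The test was made on log2(FPKM + 1), where FPKM is the fragment count scaled to transcript length and to the mapped fragments of the library. Differences below are Y16A minus WT on that scale, which understates the change of low genes, and intervals are 95% intervals. At an unadjusted p under 0.05 there were 525 genes (5.21%), 329 with the higher level in Y16A cells (3.26%) and 196 with the lower level (1.94%). The 3 values of one origin all lay above the 3 of the other in 921 genes (9.14%), 568 of them with Y16A above (5.63%) and 353 with Y16A below (3.5%). Of all tested genes 5546 had a positive and 4535 a negative difference, with a median of 0.06 and quartiles at -0.27 and 0.40. An exact permutation test of 3 libraries against 3 cannot give a two-sided p under 0.1, so single values have no such test here. Groups without overlap reach only that 0.1, so where non-overlap is stated below it describes the values and is not evidence of a difference.

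**Figure D1:**
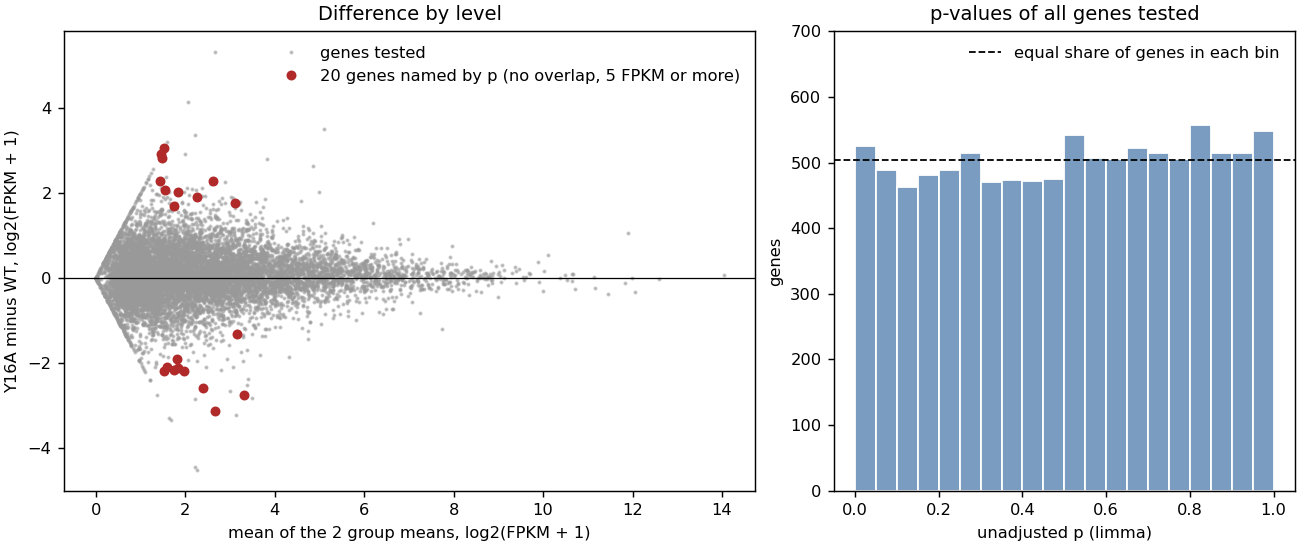
Left, the difference between origins in spleen (Y16A minus WT, log2(FPKM + 1)) against the mean level for each of the 10081 genes tested, with the 20 genes named by p among those of 5 FPKM or more without overlap in red; right, the number of genes in 20 equal bins of the unadjusted p. By mean spleen level, differences beyond 1 in either direction were most frequent at 1 to 5 FPKM (12.8% of genes). They were less frequent under 1 FPKM (4%) and over 50 FPKM (1.5%). The lowest bin of p holds 525 genes, near the dashed line of an equal share.

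A p that misses the threshold does not show that the cells were alike, and the intervals give the differences that the values leave possible. Their half-width is the difference that reaches an unadjusted p of 0.05, and a call by adjusted p needed a larger one. Larger differences thus went uncalled, such as that of Bcl2a1b, a gene above 50 FPKM (0.93, adjusted p 0.781 in limma). For the 601 genes with a mean above 50 FPKM in spleen, the median half-width of the interval was 0.68 on the log2 scale, a 1.6-fold change, and 2% had an unadjusted p under 0.05. For the 2594 genes between 5 and 20 FPKM the median half-width was 1.05, a 2.07-fold change. For the 4391 genes between 1 and 5 FPKM it was 1.15, and 31.7% of them were listed at 0 in at least 1 spleen library. Single libraries weigh heavily among 3. Each of the 6 spleen libraries was left out in turn for the 620 genes tested that are in a list or named. Of these genes, 566 were counted as moved by over 1.5 times or turned in sign, and 299 turned in sign. The 566 include genes with a difference near 0, such as B2m (0.003), where a ratio says little. They also include genes that stayed at 0 throughout, such as Cel. Differences with 1 spleen library left out are given below for some genes only, so a difference printed without one may move as much.

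The spleen libraries differed from one another about as much within an origin as between origins. Across genes, the correlation of log2 values was 0.828 to 0.861 among WT libraries, 0.846 to 0.866 among Y16A libraries and 0.822 to 0.869 between a WT and a Y16A library. Genes are not independent replicates, so these values describe similarity only. WT library 1 stood apart on the first principal component of the 6 libraries (26.1% of the variance), at 77.2 against -24.2 to -6.5 for the others. It also had the lowest FPKM total, 163024 against 195847 to 258708. Estimated depth was 4.84 to 7.82 M fragments for WT and 4.30 to 7.88 M for Y16A libraries. Without WT library 1 the count of called genes was again 0. Some entries were listed at 0 that are hardly ever silent: Gapdh and Ppia, genes of glycolysis and protein folding that every cell uses, were each at 0 in 4 of 6 libraries, while Actb, the actin of every cell, ran from 593 to 1350 FPKM. A value of 0 below therefore means listed at 0 and no more. Although the labels give female donors and recipients, the Y-linked genes Eif2s3y (2.37 to 11 FPKM) and Ddx3y (0.583 to 3.72 FPKM) were above 0 in all 6 spleen libraries. The 6 libraries of both origins showed this in common. Of other Y-linked genes, Kdm5d was at 0.033 to 1.7 FPKM and Uty was above 0 in 4 of the 6. Xist, the X-linked transcript of female cells, was at 0 to 0.356 FPKM, and the X-linked Tsix was at 1.99 to 8.61 FPKM. The X-linked Eif2s3x was above 0 in only 2 of the 6, at up to 0.712 FPKM. What lies behind the values of these sex-linked genes was not tested. The genotype entry of the labels reads NOD.Y16A for all 6 spleen libraries, and NOD for all 6 islet libraries, against the titles and the design text, so the origins rest on the titles in both tissues.

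The libraries carried the transcripts that define CD4 T cells. All 14 CD4 T cell identity genes were above 0 in each library, and their summed level was 2000, 3070 and 2700 FPKM in WT and 3040, 2450 and 2790 FPKM in Y16A libraries. Cd3e, a signalling chain of the T cell receptor complex, was at 204, 297 and 267 FPKM in WT and at 299, 218 and 272 FPKM in Y16A libraries. The groups overlapped, and the difference was 0.04 (interval -0.51 to 0.60, which is 0.701-fold to 1.52-fold). Cd4, the coreceptor for MHC class II, was at 66.0, 92.6 and 91.8 FPKM against 117, 67.5 and 88.5 FPKM. Cd8a, the coreceptor of the other main T cell lineage, was at 0.379, 1.87 and 0.747 FPKM against 0, 1.59 and 0.439 FPKM. In both groups it was far below Cd4. The cells of the recipients were bulk samples, and the labels name no sort after transfer. A lower level can mean fewer cells of a type or less RNA per cell, and these cannot be told apart.

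Transcripts of other spleen cells were present in both groups. Red cell and platelet markers summed to 1460, 609 and 1550 FPKM in WT and 1220, 165 and 2440 FPKM in Y16A libraries, led by the haemoglobin genes. This was the list with the widest range between libraries, and the groups overlapped. The 22 macrophage and monocyte markers summed to 175, 190 and 225 FPKM in WT and 216, 285 and 224 FPKM in Y16A libraries. Of the 15 tested, 9 had a positive and 6 a negative difference. Lyz2, the lysozyme of macrophages and neutrophils, was at 11.5, 35.5 and 30.3 FPKM against 36.1, 81.4 and 41.0 FPKM. C1qb, a complement chain made by tissue macrophages, was at 0, 4.55 and 1.59 FPKM against 5.46, 6.43 and 15.6 FPKM. For both genes all Y16A values lay above all WT values, and neither passed the test (unadjusted p 0.0458 and 0.0251). These are the 2 of the 15 with an unadjusted p under 0.05, and other members went differently. C1qc, a chain of the same complex as C1qb, was at 8.61, 12.7 and 0.506 FPKM against 1.65, 2.54 and 9.24 FPKM, with overlap. Cd68, a lysosomal protein of macrophages, was at 5.38, 7.68 and 21.9 FPKM against 4.44, 5.58 and 4.01 FPKM, a difference of -0.94. The mean log2(FPKM + 1) of the list was 1.44 to 1.80 in WT and 1.83 to 2.13 in Y16A libraries, also without overlap. The defining receptors Csf1r and Adgre1 stayed at or below 1.54 and 1.45 FPKM. Neutrophil markers summed to 188, 245 and 117 FPKM in WT and to 107, 109 and 195 FPKM in Y16A libraries, with the primary granule gene Elane at 0 throughout. Dendritic cell and MHC class II markers summed to 446, 650 and 474 FPKM against 416, 413 and 421 FPKM, so the summed WT values were all above the Y16A values. Cst3, a protease inhibitor, was the highest member in every library. The mean log2(FPKM + 1) of the list overlapped, at 2.25 to 2.30 in WT and 2.02 to 2.38 in Y16A libraries, and of 9 members tested 4 had a positive and 5 a negative difference. The markers of CD8 T and NK cells summed to 280, 241 and 203 FPKM against 672, 204 and 192 FPKM, and the highest value belonged to Fcer1g, an adaptor chain shared with myeloid cells, in Y16A library 1 (528 FPKM).

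The list of mast cells and basophils was singled out of the 12 marker lists after its values were seen. It was the only one whose summed level was near 0 in one origin and above it in every library of the other. The 8 markers of mast cells and basophils summed to 0.327, 0 and 0.504 FPKM in WT and to 5.70, 8.93 and 5.84 FPKM in Y16A libraries. Mcpt8, a basophil protease, was listed at 0 in all WT libraries and at 5.36, 5.03 and 0 FPKM in Y16A libraries. Prss34, another basophil protease, was at 3.47 FPKM in Y16A library 3 and at 0 in the other 5. The mast cell protease gene Cpa3 was at 0 in all 6. Different genes thus led the sum in different Y16A libraries, and Fcer1a was above 0 only in Y16A library 2 (2.76 FPKM). Gata2 overlapped, at 0.249, 0 and 0.504 FPKM in WT and 0.157, 0.182 and 1.75 FPKM in Y16A libraries. Hdc did not overlap, at 0.078, 0 and 0 FPKM against 0.102, 0.224 and 0.617 FPKM. Only 1 of the 8 markers passed the filter for testing, and it was not called, so this is a description of 6 libraries. B cell markers summed to at most 7.20 FPKM, and those of the endocrine pancreas to at most 8.82 FPKM. Whether any of these cells bear on the differences between origins was not tested.

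**Figure D2:**
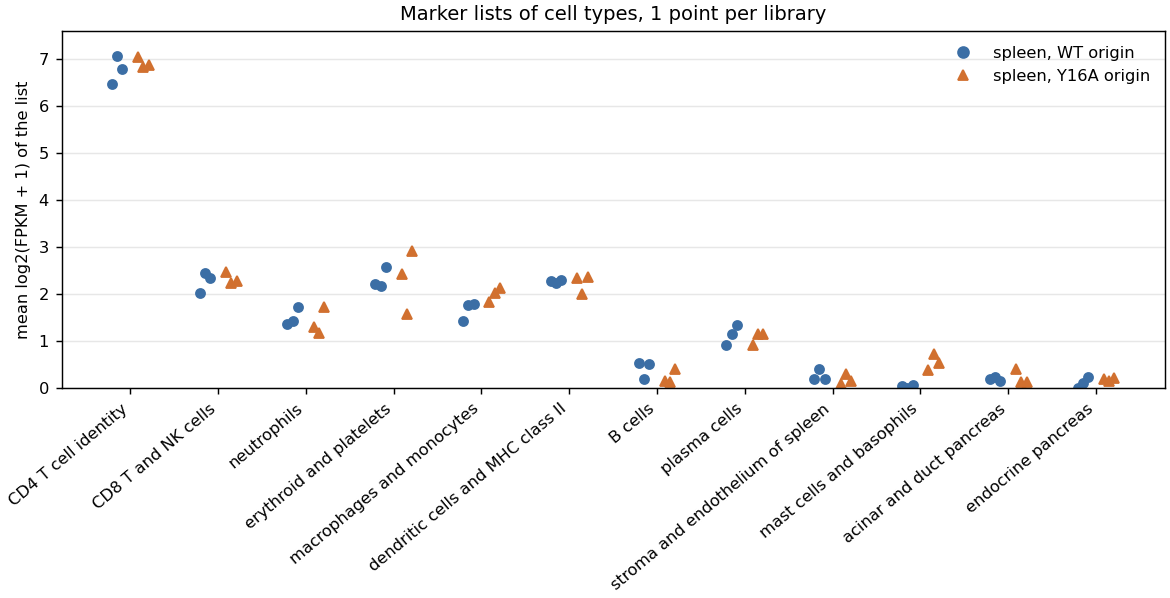
Mean log2(FPKM + 1) of each list of cell type markers, 1 point for each of the 6 spleen libraries, with circles for WT and triangles for Y16A origin. CD4 T cell identity genes lie near 7 in all libraries, mast cell and basophil markers lie at 0 to 0.074 in WT and 0.393 to 0.728 in Y16A libraries, and macrophage markers at 1.44 to 1.80 and 1.83 to 2.13.

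The T cell receptor complex and the kinases next to it are read first in T cells that have met antigen. Of 18 such genes tested 0 were called, 14 had a positive and 4 a negative difference, and the median was 0.10 against 0.06 over all genes. Without WT library 1 that median was -0.02. Lat, the membrane adaptor that gathers the signalling complex, was at 146, 256 and 229 FPKM in WT and 303, 278 and 280 FPKM in Y16A libraries. All Y16A values were above the WT values, with a difference of 0.48 (interval -0.11 to 1.08, unadjusted p 0.102). Lck, the kinase that begins the signal, was at 266, 382 and 322 FPKM against 382, 315 and 374 FPKM, and the groups overlapped. Cd5, a surface brake whose level follows the strength of self recognition, was at 61.7, 96.2 and 75.8 FPKM against 93.5, 84.1 and 104 FPKM. Its difference was 0.28 (interval -0.42 to 0.99).

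None of the genes that antigen signals induce was called in spleen. Nr4a1, a nuclear receptor switched on by T cell receptor signals, was at 9.92, 2.34 and 7.63 FPKM in WT and 7.09, 4.66 and 1.28 FPKM in Y16A libraries. Its difference was -0.53 (interval -1.75 to 0.69), and -0.008 without Y16A library 3. Of 21 T cell receptor induced genes tested 0 were called, and 15 had a negative difference. Their median was -0.25, and it ran from -0.35 to -0.06 with any 1 spleen library left out. Cd69, an early activation marker that holds cells in tissue, was at 16.4, 19.6 and 20.9 FPKM against 12.4, 25.1 and 12.1 FPKM. Ctla4, an inhibitory receptor of activated cells, was at 4.19, 9.24 and 6.10 FPKM against 5.43, 4.83 and 3.09 FPKM. Pdcd1, which encodes the inhibitory receptor PD-1, was at 15, 27.4 and 40.6 FPKM against 23.6, 32.5 and 30.9 FPKM, with a difference of 0.16 (interval -0.63 to 0.94). Both inhibitory receptor genes overlapped between origins. Among 20 immediate early genes, the smallest unadjusted p belonged to Jun, a subunit of the AP-1 factor, at 0.153, 1.08 and 0 FPKM in WT and 2.37, 3.36 and 4.15 FPKM in Y16A libraries. The groups did not overlap, and the difference of 1.66 (SE 0.47) had an adjusted p of 0.587. Gadd45g, a stress gene that favours interferon gamma production, went the other way in these libraries, at 15.8, 16.8 and 18.2 FPKM against 7.17, 4.42 and 12.6 FPKM (adjusted p 0.88).

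The Th1 programme, which makes interferon gamma, was present in both origins. Tbx21, which encodes its master regulator T-bet, was at 8.73, 14 and 24.1 FPKM in WT and 17.6, 19.6 and 22.9 FPKM in Y16A libraries. Ifng itself was at 3.84, 13.6 and 5.92 FPKM against 12.4, 5.47 and 11.1 FPKM, a difference of 0.37 (interval -0.57 to 1.30, or 0.675-fold to 2.46-fold) that was 0.02 without WT library 1. Both genes overlapped between the origins. Of 15 Th1 genes 0 were called, and 7 differences were positive and 8 negative. The smallest unadjusted p values were those of Hlx, a T-bet partner (5.84, 0 and 5.51 FPKM against 0, 0.223 and 0.118 FPKM), and Il12rb1. Il12rb1, a chain of the interleukin 12 receptor, was at 6.79, 6.13 and 5.31 FPKM in WT and 4.18, 1.98 and 1.64 FPKM in Y16A libraries, without overlap (difference -1.03, interval -2.06 to -0.01, adjusted p 0.953).

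Genes of T cell chemokines and cytotoxic granules were present in both origins, and none was called. Ccl5, a chemokine of effector T cells, was at 517, 1119 and 1355 FPKM in WT and 1825, 860.5 and 1529 FPKM in Y16A libraries (difference 0.54, interval -0.18 to 1.26, and 0.12 without WT library 1). Gzma and Gzmb, granzymes that kill target cells, showed no common direction. Gzma was at 36.4, 67.9 and 110 FPKM against 57.8, 42.7 and 115 FPKM, and Gzmb was at 31.0, 49.3 and 70.1 FPKM against 49.1, 28.9 and 29.1 FPKM. Of 14 cytotoxic granule genes 0 were called, 10 differences were positive, and the median was 0.10 (-0.07 without WT library 1).

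Receptors that place T cells in lymphoid organs or inflamed tissue were not called either. Ccr7, which guides T cells into the T cell zones of lymphoid organs, was at 44.0, 61.0 and 54.6 FPKM in WT and 53.6, 56.5 and 43.3 FPKM in Y16A libraries (difference -0.05, interval -1.0 to 0.90). Cxcr3, the receptor of the interferon induced chemokines, was at 131, 143 and 134 FPKM against 145, 183 and 198 FPKM. All Y16A values lay above the WT values, at a difference of 0.35 (interval -0.23 to 0.95, unadjusted p 0.222). Cxcr6, a receptor of tissue effector cells, overlapped at 62.8, 117 and 48.5 FPKM against 114, 59.2 and 94.3 FPKM. Among 10 inflammatory chemokine receptors the smallest p was that of Cxcr4, the Cxcl12 receptor that retains cells in bone marrow. It was at 0.852, 0.959 and 0.785 FPKM in WT and 9.53, 6.00 and 1.85 FPKM in Y16A libraries, without overlap, and its difference of 1.67 (SE 0.51) had an adjusted p of 0.744. Leaving out any 1 spleen library gave 1.26 to 2.20.

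**Figure D3:**
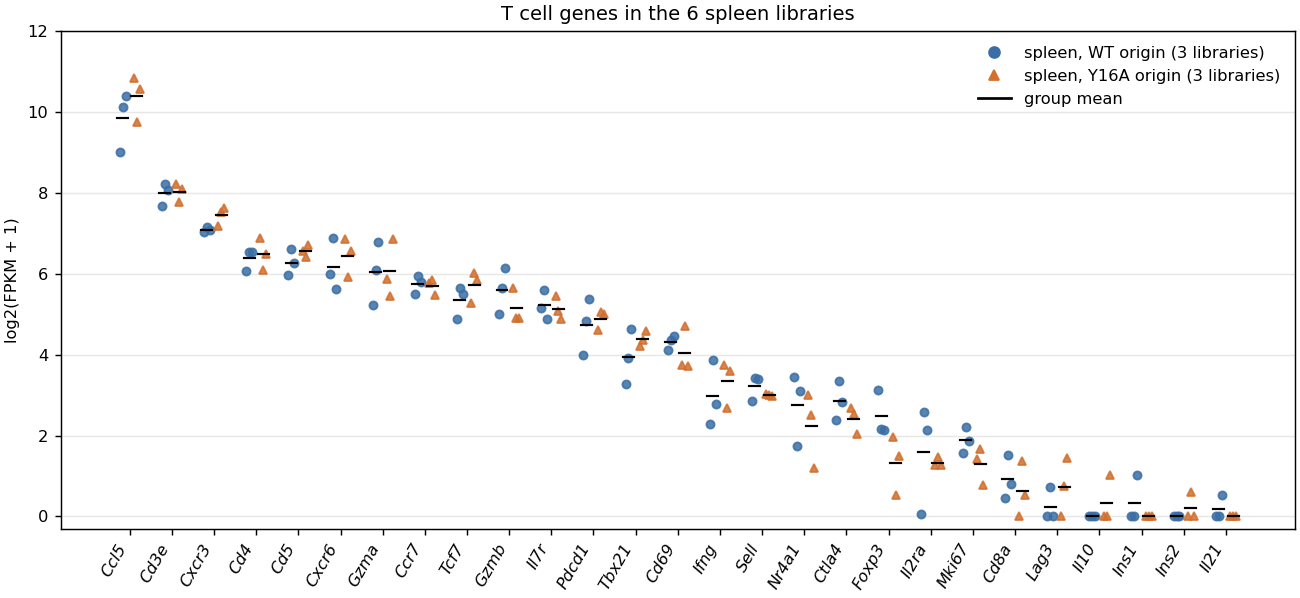
Levels in log2(FPKM + 1) of the genes fixed for description, ordered by mean level, with 1 point per spleen library (circles WT, triangles Y16A origin) and a bar at each group mean. The points of the origins overlap for most genes, and Cxcr3 and Foxp3 are the 2 whose groups do not overlap. Of all genes tested, 9.14% were without overlap in spleen.

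The naive and central memory list and the homing list lay near the median of all genes. Tcf7, a transcription factor of naive and memory T cells, was at 28.6, 49.6 and 44.1 FPKM in WT and 38.0, 64.2 and 56.5 FPKM in Y16A libraries. Lef1, its partner, was at 7.72, 13.9 and 12.8 FPKM against 19.7, 20.8 and 14.5 FPKM without overlap (difference 0.65, interval -0.31 to 1.61). Il7r, the survival receptor of resting T cells, was at 34.6, 47.9 and 28.6 FPKM against 42.7, 32.6 and 28.4 FPKM. The list had 9 positive and 5 negative differences among 14 genes tested, with a median of 0.09. The proliferation gene Mki67 was at 1.97, 3.65 and 2.62 FPKM against 1.68, 2.18 and 0.706 FPKM, and the 32 cell cycle genes had a median of -0.04 with 0 called.

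Foxp3, the factor that defines regulatory T cells, was low in all libraries. It was at 7.80, 3.44 and 3.38 FPKM in WT and 2.88, 0.445 and 1.80 FPKM in Y16A libraries, so the groups did not overlap. The difference was -1.15 (interval -2.35 to 0.05, unadjusted p 0.0587, adjusted p 0.961), and without WT library 1 it was -0.82. Il2ra, the interleukin 2 receptor chain of regulatory and activated cells, was at 0.0368, 4.96 and 3.37 FPKM against 1.41, 1.75 and 1.41 FPKM, and its sign turned with WT library 2 or 3 left out (0.24 and 0.02). Of 13 regulatory T cell genes 0 were called, and 8 of the differences were negative (median -0.16). Before transfer, fewer than 1% of the purified cells were Foxp3-positive, per the labels. Il10 and Il21, cytokines of regulatory and helper cells, were each listed above 0 in 1 of 6 libraries, at 1.05 and 0.437 FPKM.

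The survival and death list had a median of 0.39, the most positive of the 36 function lists at the main settings, with 16 of 18 differences positive and 0 called. With any 1 spleen library left out, the median lay between 0.20 (without WT library 1) and 0.46. The order depended on the scaling: with quantile normalisation its median was 0.30, below those of the anergy list (0.35) and of the list of other effector and regulatory cytokines (0.34). Bcl2a1b, a copy of the anti-death gene A1, was at 55.7, 98.6 and 132 FPKM in WT and 138, 170 and 218 FPKM in Y16A libraries. The groups did not overlap and the difference was 0.93 (SE 0.30, interval 0.30 to 1.56, unadjusted p 0.00588, adjusted p 0.781). Without WT library 1 the difference was 0.59. Bcl2a1 copies are nearly identical, so reads may be split between them: Bcl2a1d was at 19.7, 59.5 and 75 FPKM against 47.6, 62.5 and 69.2 FPKM. Bcl2l1, which encodes the anti-death protein Bcl-xL, was at 0.891, 3.46 and 3.79 FPKM against 6.55, 8.83 and 4.35 FPKM without overlap, at a difference of 1.10 (adjusted p 0.928) that was 0.67 without WT library 1. Bcl2, the best known survival gene, was at 4.45, 6.05 and 11.8 FPKM against 3.25, 15.6 and 6.70 FPKM, a difference of 0.05 (interval -1.02 to 1.12). Bcl2l11, which encodes the death inducer Bim, had a negative difference of -0.25 (interval -1.19 to 0.69). Bax and Bbc3, which promote death, had positive differences as well (0.57 and 0.90), which were 0.29 and 0.03 without WT library 1.

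The type I interferon list had the most negative median, -0.31, with 12 of 19 differences negative and 0 called. Leaving out 1 spleen library moved it between -0.52 (without WT library 1) and 0.05, so a single library could take the sign away. Oasl2, a member of the family of RNA sensing antiviral proteins, was at 1.87, 5.28 and 2.93 FPKM in WT and 0.0696, 0.730 and 0 FPKM in Y16A libraries. The groups did not overlap, and the difference was -1.75 (SE 0.48, unadjusted p 0.00179, adjusted p 0.572). Bst2, a membrane protein that tethers virus particles, was at 87.1, 168 and 144 FPKM against 103, 65.4 and 68.6 FPKM (difference -0.72, interval -1.43 to -0.01). Irf7, the amplifier of the interferon response, was at 21.7, 31.3 and 23.9 FPKM against 21.3, 8.27 and 19.4 FPKM without overlap (difference -0.71, and -0.31 without Y16A library 2). Isg15, an interferon induced ubiquitin-like protein, lay the other way at 1.89, 66.0 and 50.8 FPKM against 35.0, 23.9 and 63.9 FPKM (difference 0.84, interval -1.16 to 2.84). That sign rested on WT library 1, without which the difference was -0.61. The interferon gamma response list had a median of 0.16 with 12 of 18 differences positive, and Gbp4, a GTPase of that response, was at 3.54, 2.60 and 3.63 FPKM against 6.55, 6.72 and 9.5 FPKM (adjusted p 0.935).

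**Figure D4:**
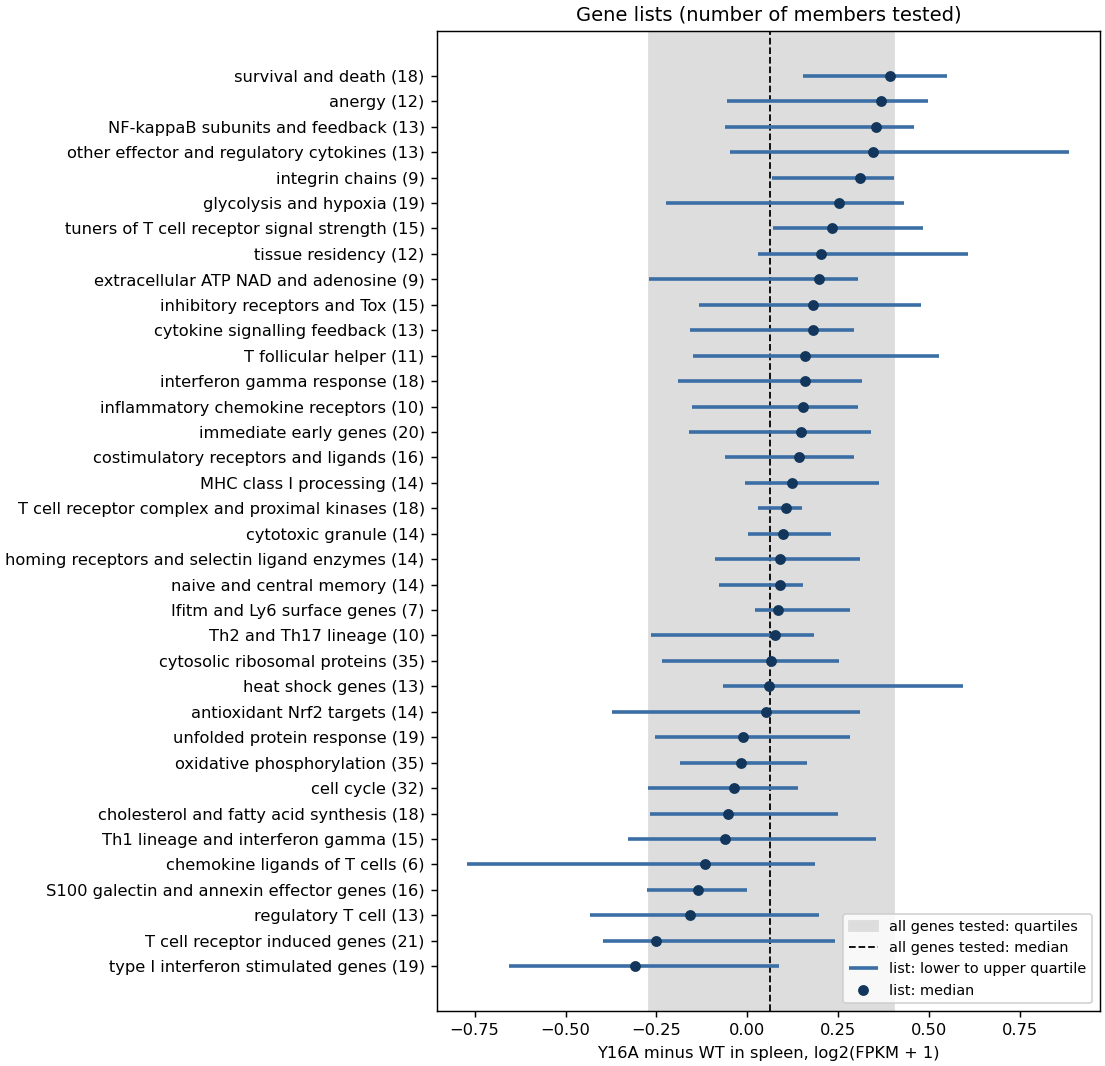
Median (points) and quartiles (bars) of the difference between origins in spleen (Y16A minus WT, log2(FPKM + 1)) for each of the 36 function lists, with the number of members tested, over the quartiles and median of all genes tested. Medians run from -0.31 (type I interferon stimulated genes) to 0.39 (survival and death), and 35 of 36 lie inside the quartiles of all genes.

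Cytokine, costimulation, feedback and stress genes had 0 called members as well. Tnfsf14, which encodes the costimulatory cytokine LIGHT, was at 0.288, 10.5 and 2.40 FPKM in WT and 10.7, 9.88 and 10.1 FPKM in Y16A libraries (difference 1.60, adjusted p 0.867), and its difference was 0.84 without WT library 1. Lta, which encodes lymphotoxin alpha, was at 3.63, 2.64 and 14.6 FPKM against 12.2, 11.5 and 9.68 FPKM, so 1 WT library exceeded all Y16A libraries. Cxcl10, a chemokine that attracts Cxcr3-bearing cells, was at 3.30, 5.88 and 13.8 FPKM against 0, 2.88 and 5.43 FPKM (difference -1.38, adjusted p 0.944). Socs1, a feedback inhibitor of cytokine signals, was at 44, 40 and 25.4 FPKM against 5.37, 32.1 and 19.3 FPKM (difference -1.17, adjusted p 0.88). Without Y16A library 1 these differences were -0.60 for Cxcl10 and -0.49 for Socs1. Nfkbia, the inhibitor that ends NF-kappaB signals, was at 35.6, 80.5 and 75.4 FPKM against 85.3, 87.2 and 87.5 FPKM without overlap (difference 0.52, and 0.15 without WT library 1), and its list of 13 NF-kappaB genes had a median of 0.35 that was 0.002 without WT library 1. Hspa1b, an inducible heat shock gene, was at 0.175, 0.389 and 0 FPKM against 0.793, 0.946 and 3.68 FPKM (adjusted p 0.88). Cd101, an inhibitory surface receptor, was at 0, 0.558 and 0.116 FPKM against 2.09, 1.29 and 2.61 FPKM (adjusted p 0.867), and neither of these pairs overlapped. The list of S100, galectin and annexin genes had 12 of 16 differences negative (median -0.14), and its highest members overlapped: S100a6, a calcium-binding protein of effector T cells, was at 990.1, 1381 and 1080.0 FPKM against 1096, 705.5 and 1002 FPKM.

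The housekeeping lists lay near zero. The 35 cytosolic ribosomal protein genes tested had a median of 0.07 and the 35 oxidative phosphorylation genes a median of -0.02, with 0 called in either. Tissue residency genes had a median of 0.20 over 12 genes. Rgs1, which damps chemokine receptor signals, was at 1.15, 12.0 and 9.19 FPKM in WT and 16.9, 24.9 and 8.57 FPKM in Y16A libraries (difference 1.32, adjusted p 0.88), and this value was 0.52 without WT library 1. Bhlhe40, a factor of effector and resident T cells, was at 13.4, 27.0 and 22.0 FPKM against 39.1, 23.9 and 48.9 FPKM (difference 0.81, adjusted p 0.917). The antioxidant list was split, 7 to 7, and its 2 smallest p values belonged to glutathione genes with lower Y16A values. Gsr, the glutathione reductase, was at 7.66, 11.4 and 12.7 FPKM against 4.99, 3.55 and 5.20 FPKM, and Gclc, a subunit of the enzyme that starts glutathione synthesis, was at 4.44, 3.68 and 3.88 FPKM against 2.33, 1.57 and 0.775 FPKM. Neither was called (adjusted p 0.917 and 0.944), although neither overlapped.

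Since no gene was called, the 10 genes of smallest p in each direction were taken among those with at least 5 FPKM on average in the higher group and no overlap (284 with higher Y16A values and 151 with lower). Non-overlap was part of this choice and is no result. Those with higher Y16A values were Polr2k, H2bc4, Mrps10, Prr9, Plekhf1, Gemin2, Crlf2, Abraxas2, Dalrd3 and Tnfsf11. Those with lower values were H2bu2, Fahd2a, Bola1, Ralb, Stk16, Hebp1, Ocel1, Slc10a3, Lsmem1 and Jkamp. Adjusted p values ran from 0.297 to 0.781. Of the 20 genes, 5 had a WT library and 9 a Y16A library listed at 0.

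Polr2k, a small subunit shared by the RNA polymerases, was listed at 0 in all 3 WT libraries and at 9.81, 3.17 and 12.2 FPKM in Y16A libraries. In islets it was above 0 in all 6 libraries (3.57 to 25.6 FPKM). The histone gene H2bc4 was likewise listed at 0 in the WT and at 9.60, 2.40 and 11.3 FPKM in the Y16A spleen libraries, and at 0 in 5 of 6 islet libraries. Another histone gene, H2bu2, was at 21.8, 21.9 and 12.1 FPKM in WT and 0, 0 and 9.05 FPKM in Y16A libraries. These histone genes of 1 family had differences of opposite sign. Crlf2, a chain of the receptor for thymic stromal lymphopoietin, was at 0.210, 1.89 and 5.32 FPKM against 19.1, 7.15 and 14.3 FPKM, with a difference of 2.27 (interval 1.01 to 3.54, adjusted p 0.522). Tnfsf11, which encodes the cytokine RANKL of activated T cells, was at 0.182, 4.41 and 1.35 FPKM against 6.03, 7.90 and 11.8 FPKM, with a difference of 1.91 (interval 0.79 to 3.04, adjusted p 0.572). Plekhf1, an endosomal protein, was at 1.59, 0.357 and 0.571 FPKM against 2.52, 7.66 and 11.2 FPKM. Among the genes with lower Y16A values, Bola1, a mitochondrial iron-sulphur protein, was at 17.7, 52.9 and 16.2 FPKM in WT and 0, 5.47 and 7.70 FPKM in Y16A libraries (difference -2.75, interval -4.16 to -1.35, adjusted p 0.394). Ralb, a small GTPase of vesicle traffic, was at 5.25, 3.98 and 6.79 FPKM against 0.501, 1.10 and 0 FPKM. Jkamp, an adaptor of stress kinase and protein degradation pathways, was at 17.3, 14.2 and 9.34 FPKM against 3.17, 6.52 and 4.77 FPKM. Exons of Abraxas2, Dalrd3, Jkamp, Lsmem1, Ocel1, Slc10a3 and Stk16 overlap those of neighbouring genes, so their values may hold reads of those neighbours.

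**Figure D5:**
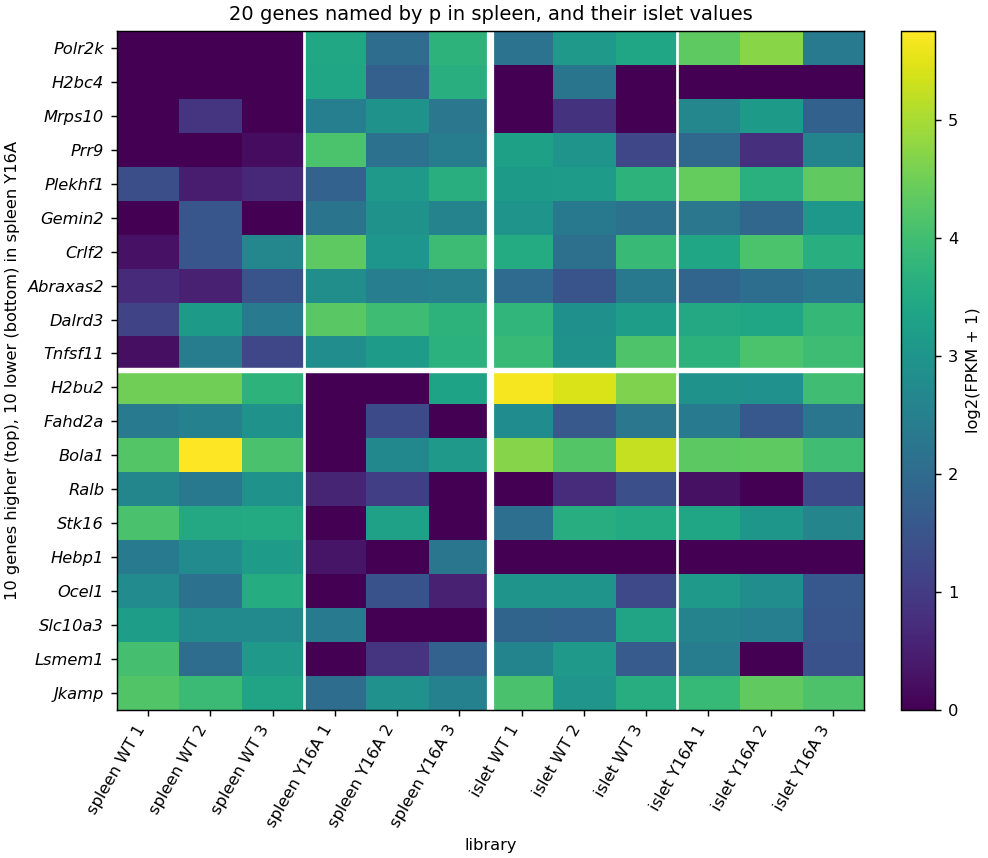
Levels in log2(FPKM + 1) of the 20 genes named by p in spleen among those of 5 FPKM or more without overlap, 10 with higher (top) and 10 with lower (bottom) Y16A values, in the 6 spleen libraries (left) and the 6 islet libraries of the same recipients (right). The contrast seen in the spleen columns, by which the genes were chosen, is also without overlap in the islet columns only for Mrps10 and H2bu2. Of all genes tested, 10.1% were without overlap in islets.

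The same contrast in the islets of the same recipients gave 0 called of 10081 genes (0%), with 476 at an unadjusted p under 0.05 (4.72%). The difference between the islet and the spleen contrast, tested as an interaction, also gave 0 called (0%), and 434 genes had an unadjusted p under 0.05 (4.31%). No gene can thus be said to differ between origins in one tissue and not in the other. The islet differences of single genes and lists are printed after subtraction of their median of 0.26 over genes above 5 FPKM. The spleen median was 0.07 and is not subtracted from the spleen values beside them, so the scales of the tissues differ. The recipients, but not the libraries, are common to both contrasts. One of the 20 genes, Hebp1, was listed at 0 in all islet libraries. For 14 of the other 19 (73.7%) the islet difference had the sign of the spleen difference, against 53.6% of 10062 genes, without subtraction. With the medians subtracted in both tissues the values were 14 and 52.2%. For 2 of the 14, Mrps10 and H2bu2, the islet groups did not overlap either. Over all genes tested, the islet groups did not overlap in 1014 (10.1%), so such a count is no result about these genes. A shared sign also says nothing of size: the Dalrd3 difference was 1.765 in spleen and 0.007 in islets. Of the 20 genes, 15 had an unadjusted p under 0.05 for the interaction, against 4.31% of all genes. The interaction holds the spleen values by which these genes were chosen, so that count is no result either. The Tnfsf11 difference was 1.91 in spleen and 0.01 in islets, at 13.8, 6.65 and 16.9 FPKM in WT and 12.1, 16.4 and 14.5 FPKM in Y16A islet libraries. Foxp3 had an islet difference of -1.45 beside the -1.15 in spleen. The type I interferon list had a median of -0.39 in islets with 14 of 19 differences negative, and the survival list had a median of 0.14, beside -0.06 over all genes. The T cell receptor induced genes lay the other way in islets than in spleen. Their islet median was 0.23, with 13 differences positive and 8 negative, and their spleen median was -0.25.

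When the origins were compared over both tissues at once, with the recipient as a random term, 2 genes were called (0.0198% of 10081) and 526 had an unadjusted p under 0.05 (5.22%). This comparison was added after the data had been seen. Mrps10, a protein of the small mitochondrial ribosome subunit, was at 0, 0.860 and 0 FPKM in WT and 4.63, 6.80 and 3.84 FPKM in Y16A spleen libraries. In islets it was at 0, 0.783 and 0 FPKM in WT and 5.33, 7.85 and 2.45 FPKM in Y16A libraries. All 6 Y16A values were above all 6 WT values, and the difference over both tissues was 2.27 (SE 0.35, adjusted p 0.0403). Ptges3l, a relative of the cochaperone gene Ptges3, was at 1.01, 0 and 0.582 FPKM against 5.85, 2.72 and 5.54 FPKM in spleen. In islets it was listed at 0 in WT and at 3.66, 6.10 and 2.45 FPKM in Y16A libraries, and the difference over both tissues was 2.09 (SE 0.34, adjusted p 0.0403). Its exons overlap Rundc1 and Gm27029. Both calls were close to the threshold and did not hold at another pseudocount: the adjusted p of each was 0.113 with a pseudocount of 0.1, and 0.0799 (Mrps10) and 0.0925 (Ptges3l) with 5. With quantile normalisation Mrps10 was at 0.0397 and Ptges3l at 0.0713. With each of the 12 libraries left out in turn, Mrps10 passed in 3 fits (adjusted p 0.0388 to 0.178) and Ptges3l in 1 (0.0481 to 0.22). Mrps10 passed only without spleen WT 1, spleen Y16A 3 or islet Y16A 3, and Ptges3l only without spleen WT 1.

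When the transcript entries were tested as deposited, without summing per gene, 8 of 11914 entries were called in spleen. They included entries of Ivns1abp, Tysnd1, Puf60, Raly, Zc3hav1, Clec4a3 and Lrmp, named after their values were seen. The adjusted p in limma ran from 0.0258 to 0.05 as rounded, and those of Tysnd1, Raly and Clec4a3 lay just under the threshold. In 6 of the 8 genes, all but Clec4a3 and Lrmp, the entry was listed at 0 in all 3 libraries of one origin while the gene total did not differ by the test (unadjusted p 0.508 to 0.983). For Puf60, a splicing factor, 1 entry was at 50.8, 9.17 and 17.2 FPKM in WT and 0 in all Y16A libraries, whereas the gene total was 50.8, 50.8 and 43.1 FPKM against 51.4, 55.3 and 57.7 FPKM. FPKM of alternative transcripts of 1 gene are estimates that share reads. Clec4a3, a C-type lectin receptor of myeloid cells, also had the smallest unadjusted p of all gene totals (5.91e-05, adjusted p 0.297). It was at 0, 0.308 and 0.181 FPKM in WT and 3.70, 3.97 and 4.06 FPKM in Y16A spleen libraries, and its mean of under 5 FPKM kept it out of the 20 genes above.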

How the data were processed

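Per the labels' protocols, cells were lysed with Triton X-100, and amplified cDNA went into Nextera XT libraries. The authors used TopHat 1.0.0 and Cufflinks with build mm9, per the submitters' processing notes, and deposited FPKM for each transcript in each library. Of 36285 entries, 36168 (99.68%) were matched to a symbol and summed to 24374 genes. No counts were used; fragments were estimated from FPKM steps, and 3 fragments on 1500 bp equal 0.254 to 0.465 FPKM in spleen.

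A gene entered the tests when 3 or more of the 12 libraries listed it at 1 FPKM or above. limma 3.58.1, run in R 4.3.3 with statmod 1.5.0, was fitted to log2(FPKM + 1) with 4 group means, intensity trend, robust variance and Benjamini-Hochberg adjustment over all genes. The islet libraries thus share the estimate of spread. p-values measure the spread between recipients' libraries. The pipeline was tested on simulated data. Figures were drawn with matplotlib 3.10.9. The authors' deposited table of an islet comparison was not used here.

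Members and lists were chosen with earlier results of these data known. Named genes were called genes, or the 10 of smallest p in each direction among those of 5 FPKM or more without overlap; up to 2 genes of smallest p per list; and a fixed set. Other list and marker genes given with values were chosen after their values were seen. For 1 called transcript entry, the gene is not reported here. The main fit did not pair the origins by replicate number. Deviations of same-numbered WT and Y16A spleen libraries correlated at -0.002 to 0.02. Spleen and islet libraries of the same recipient correlated at only 0.007 to 0.087. Such low values for a known pairing mean that this check cannot decide whether replicate numbers pair the origins.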

Additional observations from a re-analysis of the deposited data

How the results depend on the processing

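The count of called genes in spleen was 0 at the main settings and 1 with a pseudocount of 0.1 (Polr2k, adjusted p 0.00569) or with quantile normalisation (Snord118, adjusted p 0.0125). It was 8 for transcript entries, and 0 to 1 with 1 spleen library left out: Pole3 without WT 2, Snora78 without WT 3, Stk16 without Y16A 2 and H2bu2 without Y16A 3. The other settings gave 0, the replicate block (0, smallest adjusted p 0.162) included; the unadjusted count ran from 235 to 783. The interaction gave 1 call for transcript entries (Tor2a) and 0 to 1 with 1 library left out (Snora78 without WT 3). The comparison over both tissues gave 2 calls, 0 with a pseudocount of 0.1 or 5, 1 with quantile normalisation, and 0 to 3 with 1 library left out. Differences near zero changed sign: Il2ra was 0.27 with a pseudocount of 0.1; Gzma was -0.051 with quantile normalisation, -0.053 with median centring and -0.15 with array weights; Cd3e was -0.031 with median centring and -0.038 with array weights; Cd4 was -0.006 with array weights. With 1 library left out, values ran from -0.11 to 0.17 for Cd3e, -0.093 to 0.30 for Cd4, -0.67 to 0.02 for Cd8a, -0.38 to 0.40 for Gzma, -0.21 to 0.48 for Pdcd1, -1.02 to 0.24 for Il2ra, -0.25 to 0.11 for Il7r, -0.18 to 0.06 for Ccr7, -0.097 to 1.36 for Cxcr5 and -0.084 to 1.0 for Ly6c1. The transcript-level alternative was not run for named genes and list medians. Of 355 values of the 20 genes named by p under the alternatives, 0 changed sign and 3 passed the threshold. These genes had been chosen without overlap, so leaving out a library or changing the pseudocount could not turn their sign. That count is therefore no sign of stability. Of 648 list medians, 11 moved by more than the spread between replicates. Leaving out 1 of 3 libraries moves a group mean by less than that spread, so this count does not show that the lists were stable. With 1 spleen library left out, the type I interferon median ran from -0.518 to 0.049 and the NF-kappaB median from 0.002 to 0.419. Genes at low FPKM limit what could be seen, and depth was estimated, not given.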
